A study of Mus musculus with 4 samples.

Results

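SRSF1 peaks of high score that had no SRSF2 peak close by were described across the transcripts that hold them. A peak is a short stretch of RNA where CLIP-seq reads pile up; CLIP-seq crosslinks a protein to RNA with ultraviolet light, precipitates the protein and sequences the RNA bound to it. The peaks were chosen from the deposited SRSF1 list by 4 conditions: a deposited score of 12 or more, a host unit that the authors did not call nongenic, a chromosome other than the mitochondrial one, and no midpoint of an SRSF2 peak within 500 nt on the same strand. Of 50983 SRSF1 peaks, 46898 were genic and not mitochondrial, 9555 of these were strong (score 12 or more), and 1409 had no SRSF2 midpoint within reach. These are called unaccompanied peaks here, and the other 8146 strong peaks are called accompanied. Because score and distance to SRSF2 chose the peaks, both are given as descriptions only.

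Both libraries were made from MEFs, which are fibroblasts of mouse embryos kept in culture. SRSF1 was precipitated from a tetracycline-repressible SRSF1 line and SRSF2 from a tetracycline-repressible SRSF2 line, with cells kept free of tetracycline and with an antibody against the HA tag; no age, sex or further genotype is used here. The protein and the cell line therefore cannot be told apart, and each list rests on 1 library, so no value below has a replicate error and no test between the proteins was possible. Further SRSF1 samples, with siControl or siSRSF2, were not analysed here.

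SRSF1 and SRSF2 are SR proteins: a part that recognises RNA is followed by a tail rich in arginine and serine. They bind exons of newly made transcripts, help the splicing machinery to recognise those exons, and in many transcripts they act on the same exons, either together or against each other. SRSF1 also moves between nucleus and cytoplasm and takes part in RNA export and translation, while SRSF2 stays mostly in the nucleus. By its title the study concerned cooperation and competition of SR proteins, and strong peaks of SRSF1 without SRSF2 are the places in the lists where SRSF1 was found with no listed SRSF2 in the neighbourhood.

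The host unit of a peak is the transcript or transcript cluster in its deposited name. RefSeq-named units held 209 of the unaccompanied peaks, in 156 genes with a symbol, UCSC-named units held 10, and numbered clusters without a gene name held 1190. Coordinates are on mm9, counted from 1. No mm9 sequence or annotation was used, so no exon, intron, untranslated region or motif was assigned to any peak. Among the markers of cell types, 2 of 13 fibroblast markers (Col1a1 and Postn) had a named SRSF1 peak, 1 of 5 epithelial markers had one, and the 5 markers each of macrophages, endothelium, neurons and skeletal muscle had 0. Most units have no gene name, so a marker without a peak cannot be read as unbound.

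Most strong SRSF1 peaks had SRSF2 nearby, and the share without it was smaller in the higher classes of score, which the rule used. The 1409 unaccompanied peaks were 14.7% of the strong genic peaks (95% exact interval 14.04 to 15.5), while 35.2% of all 46898 genic SRSF1 peaks had no SRSF2 midpoint within 500 nt. Among genic peaks of score 4 to 7 the share was 48.5% (47.8 to 49.2), at a score of 12 it was 20% (18.3 to 21.8), at 15 to 19 it was 12.4% (11.2 to 13.6) and at 20 to 29 it was 7.78% (6.44 to 9.31). It was no lower at 30 to 49, with 25 of 318 (7.86%, 5.15 to 11.4). Of the 111 genic peaks with a score of 50 or more, 1 was unaccompanied. Intervals of this kind cover counting error only, and peaks of the same unit are not independent.

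**Figure D1:**
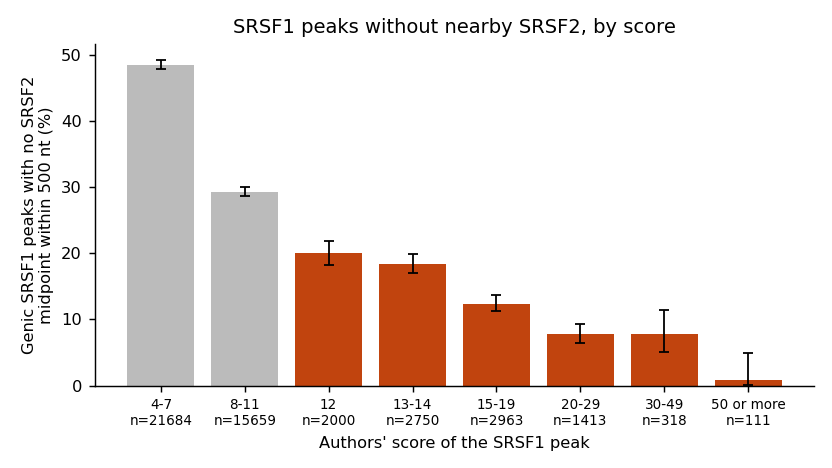
Share of genic SRSF1 peaks with no SRSF2 midpoint within 500 nt on the same strand (y axis, percent) in classes of the authors' score (x axis, number of peaks below each bar), with exact 95% binomial intervals; grey classes lie below the score of 12. The share falls from 48.5% in the lowest class to 1 of 111 peaks in the highest.

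The unaccompanied peaks gathered at the lower end of the strong scores. Their median score was 14, 400 of them (28.4%) had the minimum of 12, 136 had 20 or more and 26 had 30 or more, with a highest score of 52. Accompanied peaks had a median of 15 and a highest score of 291. Just below the score limit, 628 genic peaks of score 11 also had no SRSF2 midpoint within reach. At the distance limit, 52 unaccompanied peaks had their nearest SRSF2 midpoint at more than 500 and up to 550 nt and 58 accompanied peaks at more than 450 and up to 500 nt. The nearest inside lay on chromosome 16 (minus strand, 18285121 to 18285131, score 13, 501 nt), chromosome 2 (plus strand, 13501154 to 13501162, score 14, 501.5 nt) and chromosome 6 (minus strand, 119900063 to 119900094, score 17, 503 nt). The nearest outside lay on chromosome 5 (minus strand, 31261681 to 31261699, score 20, 500 nt) and on chromosome 10 (minus strand, 117146523 to 117146557, score 37, 499 nt, and 80362881 to 80362908, score 12, 498.5 nt).

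Most unaccompanied peaks had an SRSF2 midpoint within 5000 nt on the genome, a distance that the rule used. The median distance to the nearest SRSF2 midpoint on the same strand was 1823 nt, with 381 peaks (27.04%) nearer than 1000 nt, another 361 (25.6%) up to 2000 nt, 307 (21.8%) up to 5000 nt and 135 (9.58%) up to 10000 nt. A further 177 (12.6%) lay 10000 to 100000 nt from SRSF2 and 48 (3.41%) beyond that. For 1208 peaks (85.7%) the nearest SRSF2 peak belonged to the same host unit. On the opposite strand, 12 peaks (0.852%) had an SRSF2 midpoint within 500 nt, against 23 accompanied peaks (0.282%).

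What the score selects differed between units. The lowest listed SRSF1 score of a unit ran from 4 to 52 over the units of unaccompanied peaks, and 401 of these peaks (28.5%, 26.1 to 30.9) were in units where every listed SRSF1 peak had a score of 12 or more. The same held for 1792 accompanied peaks (21.999%, 21.1 to 22.9) and for 4.68% of all genic peaks. In 173 cases (12.3%) an unaccompanied peak had the lowest SRSF1 score listed in its own unit, against 4.35% of accompanied and 35.9% of all genic peaks. The SRSF2 list has such a lower edge too: of the 1231 unaccompanied peaks whose unit had SRSF2 peaks, 414 (33.6%) were in units with no listed SRSF2 peak below 12, against 2368 of 8141 accompanied peaks (29.1%) and 7.78% of all genic peaks in units with SRSF2. The share of strong peaks without SRSF2 was 13.7% (12.9 to 14.5) in units with lower-scoring SRSF1 peaks and 18.3% (16.7 to 19.97) in units without them. An SRSF2 site below the lower edge of its unit would not be seen in the list.

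The numbers in the peak names allow a check for SRSF2 peaks that had been numbered but are not in the list. The numbers rose with the coordinate in every genic unit of both lists, and 17.6% of SRSF1 and 19.9% of SRSF2 numbers were missing. Before and after in this paragraph go by coordinate on both strands, not by the direction of the transcript. Of the unaccompanied peaks, 447 lay between SRSF2 peaks of consecutive numbers and 137 lay before an SRSF2 peak numbered 1, which together makes 584 (41.4%) with no missing SRSF2 number of their unit at that place. For 350 peaks at least 1 number was missing between the flanking SRSF2 peaks, and for 65 before the first one. Another 232 lay after the last listed SRSF2 peak, where missing numbers cannot be seen, and 178 were in units with no SRSF2 peak. The same counts were not made for accompanied or all genic peaks. Whether 41.4% is high or low therefore cannot be told, and it does not show that SRSF2 was absent there.

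The unaccompanied peaks were spread over many transcripts. They fell in 905 host units, which is 37.7% of the 2401 units with a strong genic SRSF1 peak. In 653 units there was 1 such peak, in 144 there were 2 and in 108 there were 3 or more; the last group held 468 peaks (33.2%). In 381 units every strong SRSF1 peak was unaccompanied, although only 19 of these units had 3 or more of them. By strand, 52.7% lay on the plus strand.

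Host units were usually bound by both proteins, but by fewer SRSF2 peaks than the units of accompanied peaks. The median number of SRSF2 peaks in the host unit was 7 (95% interval of the median 7 to 8) for unaccompanied peaks, 22 (21 to 22) for accompanied ones and 12 for all genic SRSF1 peaks. The median number of SRSF1 peaks was 10, against 20 for accompanied ones. A host unit with no SRSF2 peak held 178 unaccompanied peaks (12.6%, 10.9 to 14.5), one with 1 or 2 SRSF2 peaks held 220 (15.6%), and one with 10 or more held 600 (42.6%, 39.98 to 45.2). These numbers bear on the rule, because a unit with many SRSF2 peaks leaves less room 500 nt away from any of them.

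Taken by units, the share of strong peaks without SRSF2 fell with the SRSF2 peaks of the unit. It was 42.7% (38.4 to 47.1) in units with 1 or 2 SRSF2 peaks, 22.3% (20.5 to 24.3) with 3 to 9, 12.4% (11.03 to 13.8) with 10 to 19, 7.83% (6.93 to 8.81) with 20 to 49 and 4.37% (3.39 to 5.52) with 50 or more. Even the last group had 66 unaccompanied peaks among 1511. Where the unit had no SRSF2 peak, 178 of 183 strong peaks were unaccompanied, and the other 5 were within 500 nt of an SRSF2 peak of another unit.

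**Figure D2:**
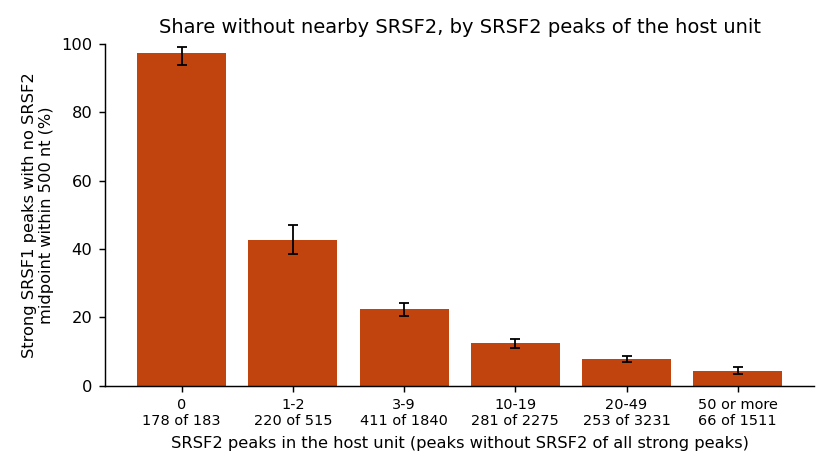
Share of strong genic SRSF1 peaks with no SRSF2 midpoint within 500 nt (y axis, percent) by the number of SRSF2 peaks in the host unit (x axis, counts below each bar), with exact 95% binomial intervals. The share is 178 of 183 in units without SRSF2 and 66 of 1511 in units with 50 or more SRSF2 peaks.

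Peak width was not used by the rule, and unaccompanied peaks were narrower than accompanied ones in this library. Their median width was 23 nt (22 to 23), with quartiles at 19 and 27 nt, against 27 nt (27 to 27) with quartiles at 22 and 35 nt for accompanied peaks and 19 nt for all genic peaks. Wider than 40 nt were 58 unaccompanied peaks (4.12%, 3.14 to 5.29) and 1205 accompanied ones (14.8%, 14.03 to 15.6). The widest unaccompanied peak had 96 nt. At like scores the medians were 22 nt (22 to 22) and 24 nt (24 to 25) at 12 to 14, and for scores of 15 to 19 they were 24 nt (23 to 24) and 28 nt (28 to 28). In the class of 20 to 29 they were 25.5 nt (24 to 27) and 32 nt (31 to 33), and with 30 or more 23 nt (20 to 33) and 35 nt (33 to 36).

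The width also depended on the unit. In units with 1 or 2 SRSF2 peaks the medians were 22 nt for unaccompanied and 23 nt for accompanied peaks, and in units with 20 to 49 SRSF2 peaks they were 23 and 28 nt. Where every SRSF1 peak of a unit had a score of 12 or more, they were 19 and 21 nt, and in the other units 24 and 29 nt. Strong peaks of both kinds occurred in 524 units, which held 917 unaccompanied and 3686 accompanied peaks. Within these units the median width of the unaccompanied peaks was lower in 345, higher in 158 and equal in 21, with a median difference of -3 nt. The median score was also lower in 312 of these units and higher in 150; whether these were the same units was not tested.

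Unaccompanied peaks also had fewer SRSF1 neighbours. Another SRSF1 midpoint, of any score, lay within 500 nt on the same strand for 535 of them (38.0%, 35.4 to 40.6), against 72.2% (71.3 to 73.2) of accompanied peaks and 52.6% of all genic peaks. Within 50 nt the shares were 16.3% (14.4 to 18.3) and 30.6% (29.6 to 31.6). The median distance to the next SRSF1 midpoint was 828 nt (747.5 to 920) for unaccompanied and 94.5 nt (90.5 to 100.5) for accompanied peaks. The rule bears on these values too. Only 35.2% of all genic SRSF1 peaks had no SRSF2 midpoint within 500 nt. An SRSF1 neighbour can therefore come with an SRSF2 peak that takes a peak out of the unaccompanied set. How much of the difference follows from the rule was not tested.

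Fewer SRSF1 neighbours were listed for unaccompanied peaks also at like scores and in units with like numbers of SRSF1 peaks, but the difference varied with the SRSF2 peaks of the unit. With scores of 12 to 14, 35.2% of unaccompanied and 69.5% of accompanied peaks had an SRSF1 neighbour within 500 nt, and with scores of 20 to 29 the shares were 50.9% (41.2 to 60.6) and 76.4% (74.0 to 78.6). At 30 or more, the intervals of 65.4% (44.3 to 82.8, 26 peaks) and 83.9% (79.9 to 87.3) overlapped. In units with 3 to 5 SRSF1 peaks the shares were 38.4% and 57.3%, and in units with 21 or more they were 44.8% (39.5 to 50.2) and 79.2% (77.9 to 80.4). By SRSF2 peaks of the unit, the shares were 37.7% and 48.8% with 1 or 2, and 40.9% and 81.0% with 50 or more. Within the 524 units with both kinds, the share was lower for unaccompanied peaks in 294, higher in 129 and equal in 101. With 1 library of each protein, counting intervals are the only error at hand for these differences, and read coverage along each transcript was not used here.

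**Figure D3:**
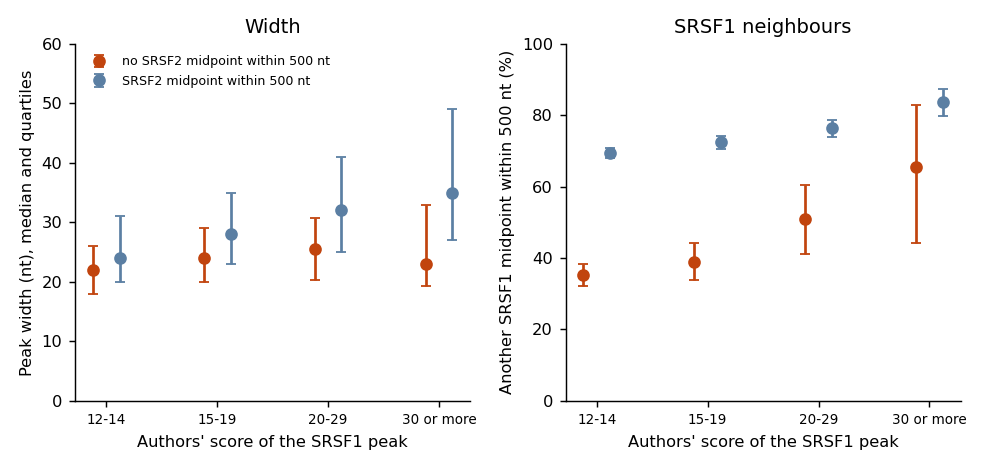
Left, peak width in nt (median with quartiles), and right, percent of peaks with another SRSF1 midpoint within 500 nt (exact 95% intervals), in classes of the authors' score, for strong genic SRSF1 peaks without (orange) and with (blue) an SRSF2 midpoint within 500 nt. Median widths are 22 and 24 nt at scores of 12 to 14 and 25.5 and 32 nt at 20 to 29, and neighbours are fewer without SRSF2 in each class.

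In their own transcript, unaccompanied peaks were often among the leading SRSF1 sites, but no more often than accompanied peaks of units with as many peaks. The rank comes from the score that the rule used, and equal scores share a rank, so it is given as a description only. In units with at least 3 SRSF1 peaks, 379 of 1246 unaccompanied peaks (30.4%, 27.9 to 33.1) had the highest SRSF1 score of the unit. The same held for 23.5% (22.5 to 24.4) of accompanied peaks and 13.4% of all genic peaks. Among the leading 3 were 59.3%, 48.0% and 37.5%. The order of unaccompanied and accompanied peaks turned once units were taken by size. The top share was 58.7% (52.6 to 64.6) and 64.2% (60.2 to 68.1) in units with 3 to 5 SRSF1 peaks, and 37.7% (32.4 to 43.2) and 42.1% (39.4 to 44.9) with 6 to 10. It was 23.3% (18.6 to 28.4) and 26.5% (24.6 to 28.4) with 11 to 20, and 7.76% (5.18 to 11.1) and 10.1% (9.14 to 11.025) with 21 or more. The intervals overlapped in each of these classes. The pooled difference was therefore not seen within classes of unit size.

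**Figure D4:**
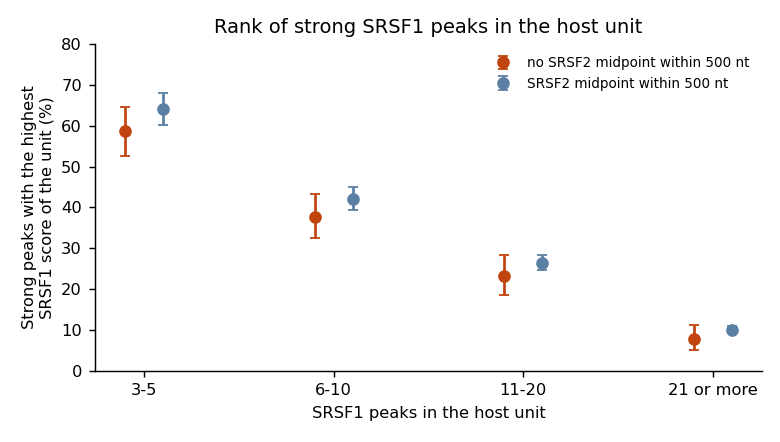
Percent of strong SRSF1 peaks that have the highest SRSF1 score of their host unit (y axis, exact 95% intervals) by the number of SRSF1 peaks in the unit (x axis), without (orange) and with (blue) an SRSF2 midpoint within 500 nt. In each class the orange point is below the blue one and the intervals overlap, as in 58.7% and 64.2% for units with 3 to 5 peaks.

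Along the transcript, 797 unaccompanied peaks (56.6%) lay between SRSF2 peaks of the same unit, 197 (13.98%) upstream of all of them and 237 (16.8%) downstream of all of them. On the span of listed peaks, taken from the upstream to the downstream end in units spanning at least 1000 nt, their median relative position was 0.59 (0.56 to 0.63), against 0.54 for accompanied and 0.56 for all genic peaks. The last 10% of the span held 21.4% of unaccompanied peaks (19.2 to 23.7), 14.4% of accompanied peaks (13.6 to 15.2) and 20.04% of all genic peaks. A peak at an end of the span has listed neighbours on 1 side only, so these shares are a description of the lists and not of the ends of transcripts.

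Thbs1, which encodes thrombospondin 1, a matrix glycoprotein that acts in cell adhesion and in the activation of TGF-beta, held more unaccompanied peaks than any other gene with a symbol. It lies on the plus strand of chromosome 2, with listed peaks from 117937680 to 117952543, and had 23 SRSF1 and 10 SRSF2 peaks. All 23 SRSF1 peaks were strong, the lowest having a score of 14, and 11 of them were unaccompanied. They include the 5 highest unaccompanied scores of this gene, 30 (117943920 to 117943944), 29 (117945730 to 117945755), 26 (117938832 to 117938857), 24 (117938872 to 117938891) and 23 (117938421 to 117938450), which are among the 10 highest over all genes with a symbol.

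Of the 11 unaccompanied peaks of Thbs1, 10 lay 537.5 to 861.5 nt from SRSF2, so that 1 would remain with a reach of 1000 nt. They formed pairs and lone peaks between places bound by both proteins. Near the upstream end, 9 SRSF1 peaks followed each other over 1328 nt before the first SRSF2 peak of the gene, and 4 of them were unaccompanied; the most upstream one had an SRSF2 midpoint 47 nt away that belongs to another unit. At 117940420 to 117940452 and 117943296 to 117943326 the midpoints of SRSF1 and SRSF2 were 1 nt apart; the latter site had the highest SRSF1 score of the gene, 46. Downstream of the SRSF2 peak at 117945092 to 117945113, the peaks at 117945730 to 117945755 (score 29) and 117948267 to 117948273 (score 14) stood alone, the latter 3004.5 nt from SRSF2. The SRSF2 scores of Thbs1 ran from 16 to 33, so SRSF2 sites with lower scores would not be seen in this gene.

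**Figure D5:**
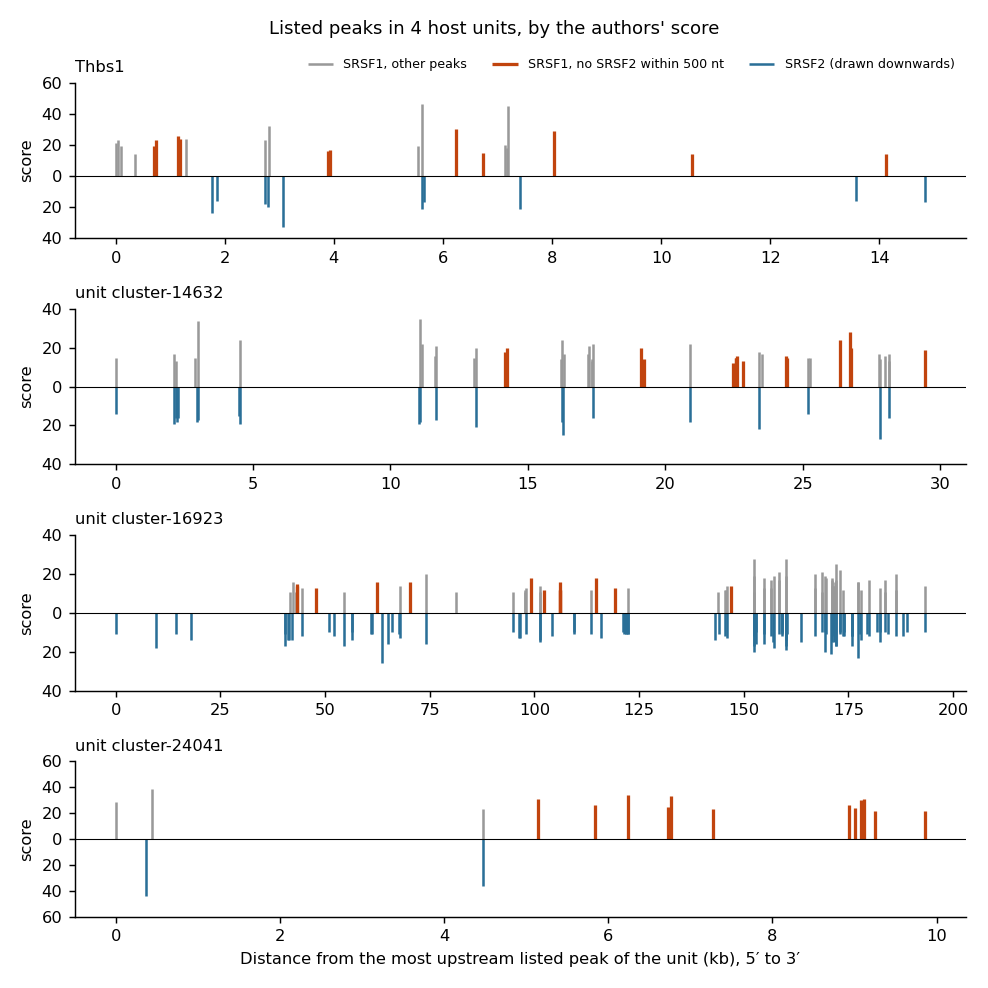
Listed SRSF1 peaks (upwards; orange, unaccompanied; grey, other) and SRSF2 peaks (downwards, blue) in Thbs1 and in the 3 unnamed units with most unaccompanied peaks; x axis, distance in kb from the most upstream listed peak, y axis, the authors' score. In Thbs1 the 11 unaccompanied peaks alternate with sites of both proteins, while in unit cluster-24041 all 12 lie downstream of the last SRSF2 peak.

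Among the other genes with most unaccompanied peaks, those of Ap3d1 lay in a gap of SRSF2 within the transcript. Ap3d1, a subunit of the AP-3 adaptor complex of vesicle traffic (chromosome 10, minus strand, 80169836 to 80204687), had 33 SRSF1 and 22 SRSF2 peaks, 21 strong SRSF1 peaks and 5 unaccompanied ones. Of these, 4 lay in a stretch of 5113 nt between adjacent SRSF2 midpoints that held 10 SRSF1 peaks, with scores of 12, 14, 22 and 13. The peak with 22 (80179284 to 80179315) was second in score in the gene and 2554 nt from SRSF2. The highest one, with 23, had an SRSF2 midpoint 4.5 nt away.

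Tspan31, a tetraspanin membrane protein, and Exosc2, a subunit of the RNA exosome that degrades RNA, had 4 unaccompanied peaks each and no listed SRSF2 peak. Tspan31 (chromosome 10, minus strand, 126505237 to 126506496) had 6 SRSF1 peaks with scores of 11, 11, 26, 12, 16 and 19 in order of coordinate, and the nearest SRSF2 midpoint on the strand was 26346 nt or more away from the strong ones. Exosc2 (chromosome 2, plus strand, 31526333 to 31535467) had 5, with scores of 20, 17, 12, 10 and 12, and the nearest SRSF2 midpoint was at least 53506.5 nt away. In both genes the nearest listed SRSF2 peak was thus farther away than the listed peaks of the gene extend on the genome. SRSF2 sites with scores too low to be listed would not be seen.

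Dpp7, a lysosomal peptidase (chromosome 2, minus strand, 25207878 to 25211828), had 6 SRSF1 and 4 SRSF2 peaks. Its 4 unaccompanied peaks, with scores of 17, 15, 16 and 17 from 25211208 to 25211828, lay upstream of all SRSF2 peaks of the gene, of which the nearest was 1175 nt away; peaks of 6 nt set 9 nt apart are among them. Lama5, the laminin alpha 5 chain of basement membranes (chromosome 2, minus strand, 179911676 to 179941505), carried 12 SRSF2 and 27 SRSF1 peaks; 7 of the latter were strong and 4 unaccompanied. The most upstream of these (179941480 to 179941505, score 16) was 5311.5 nt from SRSF2. In Lama5 the highest SRSF1 peak, with 20, was 6.5 nt from an SRSF2 midpoint.

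Id1, an inhibitor of basic helix-loop-helix transcription factors (chromosome 2, plus strand, 152562327 to 152562827), had 3 SRSF1 peaks with scores of 17, 18 and 18 and its nearest SRSF2 midpoint at 55487.5 nt. Fasn, the fatty acid synthase, had 10 peaks of each protein and 3 unaccompanied ones with scores of 12, 13 and 12. Hells, a chromatin remodeller that takes part in DNA methylation, had 22 SRSF1 and 30 SRSF2 peaks and 3 unaccompanied ones with scores of 12, 13 and 14. Smc5, a component of the SMC5/6 complex of DNA repair, had 46 and 36 peaks; its 2 unaccompanied peaks were wide, with 49 nt at a score of 25 (chromosome 19, minus strand, 23334176 to 23334224) and 64 nt at 18 (23310375 to 23310438).

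Further genes had 1 unaccompanied peak of high score. In Pcolce, an enhancer of procollagen processing (chromosome 5, minus strand, 138046388 to 138052592), the peak at 138052571 to 138052592 had a score of 25 and lay 2268.5 nt from SRSF2, in a gene with 12 SRSF1 and 13 SRSF2 peaks. In Zfp948, a zinc finger gene, the only strong SRSF1 peak (chromosome 17, plus strand, 21706007 to 21706036) had a score of 24 and was the highest of 7 SRSF1 peaks, with 2 SRSF2 peaks in the unit. In Flna, the actin crosslinker filamin A, 1 of 45 SRSF1 peaks was unaccompanied (chromosome X, minus strand, 71472250 to 71472269, score 23, 688.5 nt from SRSF2). All 45 were strong, so that peak was the exception in a transcript with 51 SRSF2 peaks.

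Among genes with a symbol and an unaccompanied peak, those with most SRSF2 peaks had 1 or 2 such peaks each. Dync1h1, the cytoplasmic dynein heavy chain, had 116 SRSF2 peaks and 2 of its 40 strong SRSF1 peaks were unaccompanied, with scores of 14 and 12. Col1a1, which encodes a collagen I chain, had 52 SRSF2 peaks and 1 of 55 strong peaks, at 94799862 to 94799878 on chromosome 11 with a score of 22, lay just beyond the limit at 509.5 nt. Kntc1, a kinetochore protein, had 39 SRSF2 peaks and 1 of 9 (score 13), and Cers5, a ceramide synthase, had 37 and 1 of 14 (score 13). The Cers5 peak was 7256.5 nt from SRSF2 and had the highest coordinate of the listed peaks of this minus-strand gene, 99602639 on chromosome 15, which makes it the most upstream. Unnamed units with many SRSF2 peaks could hold more, as cluster-16923 with 13 of 60 strong peaks beside 101 SRSF2 peaks and cluster-16212 with 8 of 32 beside 51.

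A host gene with no SRSF2 peak was seen for 43 unaccompanied peaks in 32 genes with a symbol. Beside Tspan31 and Exosc2, those with most SRSF1 peaks were Prrc1 with 6 (1 of them strong, score 12), Stxbp2, a syntaxin-binding protein of vesicle secretion, with 4 (1 strong, score 15), and Dpm2, a subunit of dolichol-phosphate mannose synthase, with 3 (2 strong, scores 19 and 12), a number that Id1 and Eef1g share. The nearest SRSF2 midpoint was 505728 nt away in Prrc1, 97696 nt in Stxbp2 and 27097.5 nt in Dpm2. Over named and unnamed units together, 120 units with an unaccompanied peak had no SRSF2 peak, and 47 of them had a single SRSF1 peak only. In 41 of these units there were 3 or more SRSF1 peaks.

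Several unnamed units carried runs of SRSF1 peaks without listed SRSF2. Unit cluster-24041 (chromosome 9, plus strand, 41389443 to 41399326) had 15 SRSF1 peaks, all with scores of 22 or more, and 2 SRSF2 peaks with scores of 44 and 36. Its 12 unaccompanied peaks filled the 4726 nt from 41394601 to 41399326 with no listed SRSF2 peak, and their scores were, in order, 31, 26, 34, 25, 33, 23, 26, 24, 30, 31, 22 and 22. All 12 scores were below 36, the lower of the listed SRSF2 scores, so SRSF2 sites with scores like these would not be seen in this unit. The 12 peaks also lay after the last listed SRSF2 peak, where missing numbers cannot be seen. The highest SRSF1 score of the unit, 39, was at a peak near SRSF2. Unit cluster-5673 (chromosome 13, plus strand, 63398230 to 63403306) had 9 SRSF1 peaks with scores of 19 to 31, all unaccompanied, and the nearest SRSF2 midpoint on its strand 522853 nt away.

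Unit cluster-17512 (chromosome 5, plus strand, 91320283 to 91321599) had 6 peaks with scores of 22, 26, 18, 31, 24 and 27 and the nearest SRSF2 midpoint 47583 nt away. Unit cluster-16181 (chromosome 4, plus strand, 135699744 to 135700971) had 5 peaks with scores of 31, 28, 38, 33 and 23; there an SRSF2 peak of another unit lay 641 nt from the nearest of them. In unit cluster-14632 (chromosome 3, plus strand, 68808984 to 68838455), which had the most unaccompanied peaks of the 905 units, 15 of 45 strong peaks were unaccompanied beside 21 SRSF2 peaks. Those of unit cluster-16923 (chromosome 4, minus strand, 123038200 to 123231576) lay between 123084704 and 123188276. Unit cluster-10039 (chromosome 17, minus strand, 25031647 to 25073790) had 10 of 19, beside 11. These latter units are mixed, with stretches of SRSF1 alone among sites of both.

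Over all units, the unaccompanied peaks fell in 1121 stretches between adjacent SRSF2 midpoints of a strand, counted separately for each host unit. Of these, 933 held 1 unaccompanied peak, 132 held 2 and 56 held 3 or more, up to 12. Most of these stretches thus held a single unaccompanied peak, although other SRSF1 peaks could lie in the same stretch, with a median of 2 SRSF1 peaks of any score.

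The highest unaccompanied scores of all were in unnamed units. The peak with 52 (chromosome 4, minus strand, 116826729 to 116826749) was the only peak of its unit, but an SRSF1 midpoint of another unit lay 304.5 nt away on the strand. The peak was 8092.5 nt from SRSF2 and 22.998 kb from the nearest listed peak of Plk3 on the same chromosome. The peak with 42 (chromosome 4, plus strand, 134479577 to 134479591) ranked 10 among 14 SRSF1 peaks of a unit whose scores ran from 35 to 176, so it was low for its unit. The peak with 40 (chromosome 19, plus strand, 8800108 to 8800128) was in a unit of 2 SRSF1 peaks and no SRSF2 peak, 10.5 kb from the nearest listed peak of Wdr74. Those with 38 (chromosome 4, plus strand, 135700221 to 135700247) and 37 (chromosome 17, plus strand, 23960323 to 23960341) each led their unit, of 5 and 14 SRSF1 peaks. A neighbouring named unit does not tell which transcript holds a peak.

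Of the lists of genes, which together hold 774 symbols in 18 lists, 40 of 544 strong SRSF1 peaks were unaccompanied (7.35%), where 14.5% of the strong peaks in all genes with a symbol were. The extracellular matrix list had 15 of 118 (12.7%, 7.29 to 20.1), of which 11 were in Thbs1; without Thbs1 it had 4 of 95 (4.21%), and with a reach of 1000 nt the list kept 3 unaccompanied peaks. The other genes of the matrix list with such peaks were Postn, the matrix protein periostin, with 2 of 2 strong peaks (scores 15 and 12) beside 2 SRSF2 peaks, Col1a1, and Col6a1, a chain of type VI collagen, with 1 of 24 (score 14). Lama5 and Pcolce, described above, are not on this list. They had 4 of 7 and 1 of 12 strong peaks unaccompanied, so the shares hold for the listed genes only. The actin cytoskeleton list had 1 of 57, that of Flna.

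Splicing factor genes held single unaccompanied peaks, and the intervals of all 4 of their lists include the 14.5% of all genes with a symbol. The SR protein list had 1 of 13 (0.195 to 36.03%), in Srsf1 itself: the peak at 87866508 to 87866520 on chromosome 11 (plus strand) had a score of 18, ranked 9 among 11, and was the last listed peak of the gene, 1720.5 nt from SRSF2. Tagged SRSF1 was present in this line, and the list does not tell its RNA from that of the gene. The hnRNP list had 1 of 31 (0.0816 to 16.7%), in Ptbp1, a repressor of exons (score 13, at the upstream end of the listed peaks), and the other splicing regulators had 1 of 10 (0.253 to 44.5%), in Elavl1, the RNA-stabilising protein HuR (score 13, the highest of 10 SRSF1 peaks, 6224 nt from SRSF2). The core spliceosome list had 0 of 3 (up to 70.8%).

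Translation factors and chaperones had 6 of 93 (6.45%, 2.40 to 13.5). Eif1, the initiation factor that guards the choice of the start codon, had 2 SRSF1 peaks with scores of 16 and 23 (chromosome 11, plus strand, 100182142 to 100182370), both unaccompanied, and no SRSF2 peak in its unit, although 1 of another unit lay 1065.5 nt away. Eef1g, an elongation factor subunit, had 1 (score 14) and no SRSF2 peak, and Eif4g2 and Eif3b, an initiation factor and a subunit of one, had 1 each (scores 13 and 12), which leaves 1 in a gene not named here. Membrane traffic had 5 of 33, all in Ap3d1. Microtubule and motor proteins had 3 of 47, in Dync1h1 and in the mitotic kinesin Kif11 (score 13).

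The remaining lists had at most 2 each. Chromatin regulators had 2 of 28, both in Smc5. Transcription factors and Mediator had 2 of 21, in Atf4, a factor of the stress response (score 16), and Klf6 (score 14). Ubiquitin and protein turnover had 2 of 19, in the autophagy receptor Sqstm1 (score 22, 3225.5 nt from SRSF2) and the proteasome subunit Psmd1 (score 14). Cell cycle and DNA repair had 1 of 6, in the kinetochore motor Cenpe (score 15, width 63 nt, the highest SRSF1 peak of its gene). No unaccompanied peak was found among 37 strong peaks of nuclear pore, transport and RNA decay genes, 10 of histones, 9 of signalling receptors and kinases, 7 of ribosomal proteins and 2 of long noncoding RNAs. Exosc2, the exosome subunit described above, is not on the list of nuclear pore, transport and RNA decay genes. All 4 of its strong peaks were unaccompanied, so the 0 of 37 holds for the listed genes only. The exact interval for 0 of 37 reaches 9.49%, below the 14.5% of all genes with a symbol. Those of the smaller lists reach 30.8% to 84.2% and include that share. The intervals of the actin cytoskeleton list (up to 9.39%) and of translation factors and chaperones (up to 13.5%) also end below 14.5%. These intervals count peaks, and peaks of the same gene are not independent. The 57 actin peaks came from 3 genes, with 45 in Flna, the 37 from 5 genes and the 93 from 12 genes. Whether these classes of genes differ from other genes was not tested.

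Among chromosomes the share of strong peaks without SRSF2 was lowest on chromosome 12 with 24 of 298 (8.05%, 5.23 to 11.7), chromosome 1 with 61 of 717 (8.51%, 6.57 to 10.8) and the X chromosome with 33 of 359 (9.19%, 6.41 to 12.7). It was highest on chromosome 8 with 74 of 301 (24.6%, 19.8 to 29.9), where the peaks were spread over 50 units with at most 5 in any, and on chromosome 14 with 42 of 173 (24.3%, 18.1 to 31.4), over 28 units. The share of SRSF1 among all listed peaks of both proteins was 42.6%, 46.8% and 45.2% on chromosomes 12, 1 and X, and 48.1% and 45.1% on chromosomes 8 and 14.

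In the mirror case, of 13499 strong genic SRSF2 peaks, 2398 (17.8%, 17.1 to 18.4) had no SRSF1 midpoint within 500 nt, against 14.7% (14.04 to 15.5) in the other direction. The scores of both lists may not mean the same, and the SRSF2 list is longer. Strong SRSF2 peaks had median widths of 24 nt without and 26 nt with SRSF1 within reach, and 44.2% and 74.9% of them had another SRSF2 midpoint within 500 nt. A host unit with no peak of the other protein held 5.84% of these SRSF2 peaks, where it held 12.6% of the unaccompanied SRSF1 peaks.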

How the data were processed

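The authors deposited 1 peak list for SRSF1 and 1 for SRSF2, each peak having a position, strand, name and score. The submitters' processing notes name mm9 as the build. Deposited scores are whole numbers from 4 upwards. Not given in the sources used here are how reads were aligned, how peaks were called and what the score measures. Read depth is unknown. Of 4 samples, 2 were analysed.

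Midpoint distances, host units and ranks were computed with Python 3.11.15, numpy 2.4.6 and pandas 2.3.3. Exact (Clopper-Pearson) 95% intervals and order-statistic intervals of medians came from scipy 1.17.1. The nearest-midpoint step was tested on simulated data and gave the same 1409 peaks as bedtools 2.31.1. Of 2169 RefSeq units, 2155 matched a symbol in RefSeq (GRCm38.p6), from which no position was taken. The members, gene lists and limits were chosen with earlier results of these data known.

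Genes were named by rule: the 10 highest members with a symbol and the 5 highest without, the 10 genes with most members, the 5 with most SRSF1 peaks and no SRSF2 peak, the 5 with most SRSF2 peaks, up to 4 per list, and the 3 peaks on each side of the distance limit. Units cluster-24041, cluster-5673, cluster-17512, cluster-16181, cluster-14632, cluster-16923, cluster-16212 and cluster-10039 were named after their values were seen. The alternatives varied the score, the reach, the distance measure, the SRSF2 peaks counted, merging, the units and the chromosomes. No test was run.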

Additional observations from a re-analysis of the deposited data

Results flagged for a closer look

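Peaks left out by the rule held some of the same kind. Of 508 strong SRSF1 peaks in regions that the authors called nongenic, 31 (6.10%, exact 95% interval 4.18 to 8.55) had no SRSF2 midpoint within 500 nt, with a highest score of 24 and a median width of 24 nt. On the mitochondrial chromosome 1 of 58 strong peaks (1.72%, 0.0436 to 9.24) had none. No control sample was analysed here, and these counts were noted because they lie outside the comparisons above.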

How the results depend on the processing

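No paired analysis of samples was possible because each protein has 1 library and no replicate. Of 79 alternative values, 41 stayed within the interval of the main value and 38 did not or, for list counts, moved by over 1.5 times; leaving out each chromosome in turn, and measuring between nearest ends, moved none outside. With a score minimum of 8 the share without SRSF2 was 23.8%, the median width 20 nt, SRSF1 neighbours 33.8%, units without SRSF2 10.6%, top of the unit 20.98% and list members 114 instead of 40. With a minimum of 20 the values were 7.38%, 25 nt, 53.7% and 22.1%, with a median of 5 SRSF2 peaks in the unit and a relative position of 0.47. A reach of 200 nt gave 19.7% without SRSF2, 47.1% with neighbours, 9.63% in units without SRSF2, a median of 9 SRSF2 peaks and 26.6% at the top. A reach of 1000 nt gave 10.8%, 35.0%, 17.0%, 6 and 35.0%, and 24 list members. Counting only SRSF2 peaks of score 8 or more gave 17.0% without SRSF2, 15.1% in units without, a median of 6 and 33.7% at the top. Merging SRSF1 peaks within 50 nt gave 16.3% without SRSF2, a width of 24 nt and 22.4% with neighbours. RefSeq-named units alone gave 20.6% in units without SRSF2, a median of 4, 40.1% at the top and a position of 0.50. Chosen after seeing the data, units with lower-scoring SRSF1 peaks gave 13.7% and a width of 24 nt, 1 peak per unit gave 24 nt and 31.0% with neighbours, and peaks with no missing SRSF2 number gave 23 nt and 36.0%. The cause of these shifts was not tested, apart from those that follow from the definition of the setting itself. Depth is unknown, so an SRSF2 site below the lower edge of its unit cannot be told from none.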

Other observations

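In 364 of the 905 host units an unaccompanied SRSF1 peak occurred together with a strong SRSF2 peak that had no SRSF1 midpoint within 500 nt. Both kinds of lone strong site were thus listed in the same unit. The share of all units that hold such an SRSF2 peak was not computed, so the count has no background and is a description only. Of the 178 unaccompanied peaks in units without SRSF2, 20 had an SRSF2 midpoint of another unit within 5000 nt; the median distance for these 178 was 47695.8 nt.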
